A study of Homo sapiens with 2 samples.

Results

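The genes described here build and run mitosis: the kinases that start it, the kinetochore that ties chromosomes to the spindle, the spindle motors, the checkpoint, condensin, and the enzymes that end it. They were taken by symbol from a fixed list of 60 genes, chosen with earlier results of these data known. All 60 were found among the 25343 gene entries of each library, and all 60 had a mean of at least 1 TPM. Levels are in TPM, reads scaled by transcript length and then to a library total of 1000000, which allows levels of different genes to be set side by side.

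The RNA came from Huh7, an established human hepatocellular carcinoma line, described as well differentiated. For 6 days 1 arm received 4.5 g/L of glucose (called high glucose here) and the other 0.45 g/L (called low glucose). Both started at 500000 cells per well, in a line grown in DMEM with FBS, and at each passage dead cells were left behind. The labels name no genetic change or drug in either arm. There was 1 library per medium, so no test between media is possible, no p-value is given, and every difference describes a pair of libraries. The line showed its labelled liver character: 9 hepatocyte markers stood between 211 and 20859 TPM in high and between 154 and 16441 TPM in low glucose. The summed level of 4 leukocyte markers was 3.99 and 2.88 TPM, and that of 3 endothelial markers 2.14 and 2.19 TPM. The summed level of 4 fibroblast markers was 33.6 and 36.5 TPM. Of these, COL1A2 stood at 18.71 and 24.55 TPM and PDGFRA at 13.81 and 7.89 TPM. COL1A1 stood at 1.06 and 4.03 TPM, and DCN at 0.07 TPM in both media. The part of any such cells in the results was not tested.

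Cells enter mitosis when cyclin B and CDK1 are switched on by CDC25 phosphatases and Polo and Aurora kinases. Chromosomes are compacted by condensin, captured at their kinetochores by spindle microtubules, and held back by the spindle checkpoint until every kinetochore is attached. The anaphase-promoting complex (APC/C) then marks securin and the cyclins for destruction, separase opens the cohesin rings, and a ring of actin and myosin splits the cell. Most of these genes are transcribed late in the cell cycle, by the MuvB complex with B-MYB and by FOXM1, often through a promoter element called the cell cycle homology region (CHR) and CCAAT boxes bound by NF-Y. In a proliferating culture their mRNA level depends both on how many cells are in late cycle and on how much each such cell makes. In bulk RNA, fewer cells of this kind and less RNA per cell cannot be told apart.

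The 60 mitosis genes of this list were lower in low glucose almost without exception, by a modest amount. The 60 genes together made up 6774 TPM in high glucose and 4842 TPM in low, a ratio of 0.715, or 0.677% of all transcripts against 0.484%. Single genes ranged from 18.9 to 499 TPM in high glucose and from 15.3 to 385 TPM in low glucose. Differences are given as log2(TPM + 1) in low minus high glucose, a scale that slightly understates the change of the lower genes. The median over the 60 genes was -0.47, with a range from -0.93 to 0.14, while the median over the 13745 genes compared was 0.05.

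Of the 60 genes, 59 lay below 0, against 45.3% of all genes compared. None was at least 2-fold lower and none at least 2-fold higher, where 1.10% and 3.65% of all genes were. At a smaller threshold of 1.5-fold, 16 genes were lower and none higher, against 6.07% and 13.0% of all genes. It was chosen because earlier results of these data showed mitosis genes lower by less than 2-fold. The count at that threshold is therefore not independent of those results. A further 29 genes lay between that threshold and -0.32 on the log2 scale, and 15 were nearer to 0. Abundant genes in general tended lower in this pair of libraries. Among the 7380 genes whose mean level lay within the range of the mitosis genes (17.1 to 442 TPM), 53.0% were below 0 and the median was -0.03. In that range 6.63% were at least 1.5-fold lower and 10.4% higher, and 1.04% at least 2-fold lower and 2.78% higher. With the median of each level group subtracted, 57 of the 60 genes stayed below 0 and their median was -0.41. Within the 60 the size of the unadjusted difference did not go with level. The same comparison was not made with the level-group medians subtracted. The 30 genes of lower mean level (17.1 to 72.8 TPM) and the 30 of higher (74.7 to 442 TPM) both had a median of -0.47, with 7 and 9 genes at least 1.5-fold lower.

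**Figure D1:**
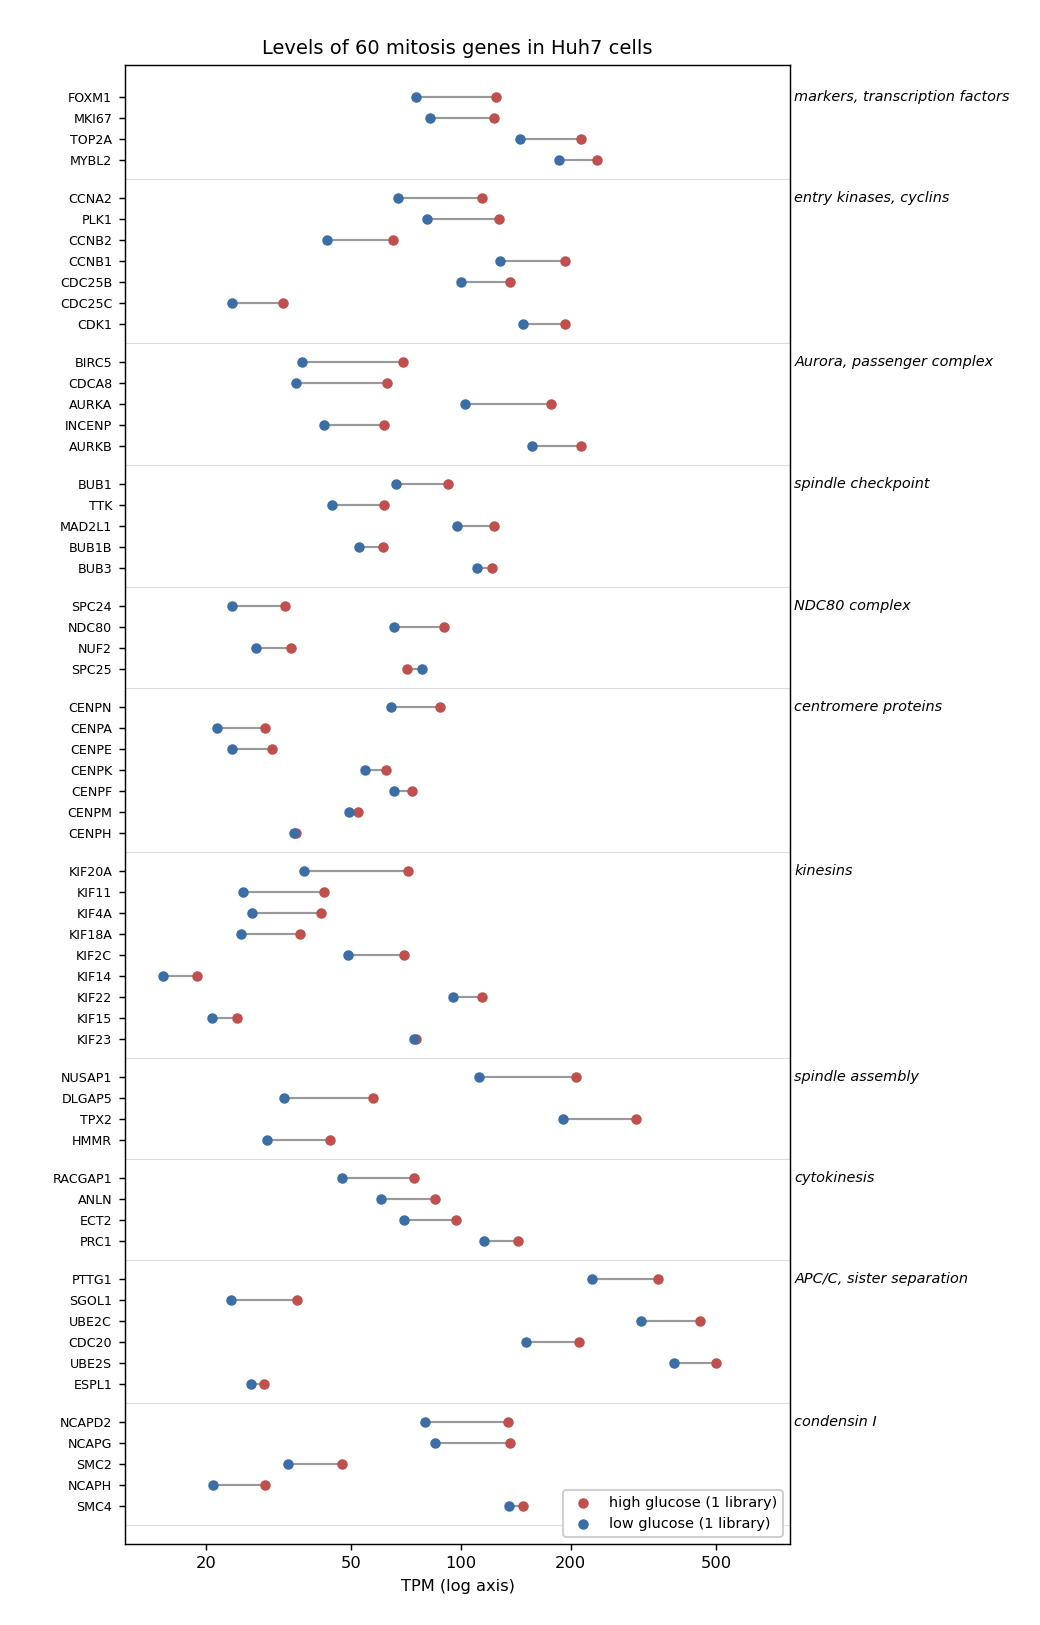
TPM on a log axis of each of the 60 mitosis genes in the high glucose library (red) and the low glucose library (blue), 1 library each, grouped by role and ordered by difference within a role. The blue point lies left of the red one for every gene except SPC25 (71.1 and 78.2 TPM), and almost touches it for KIF23 and CENPH.

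**Figure D2:**
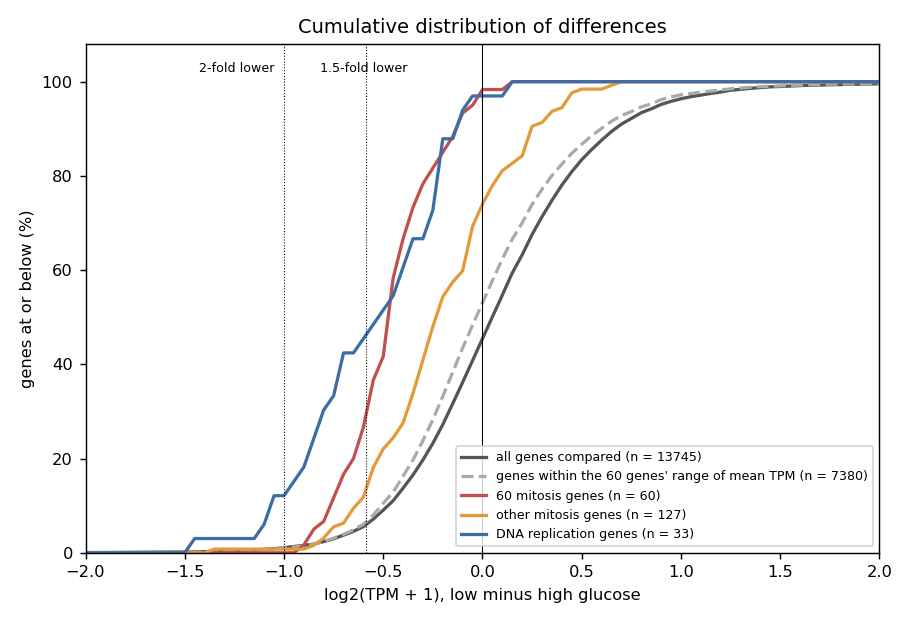
Percentage of genes (vertical axis) whose log2(TPM + 1) difference, low minus high glucose, is at or below the value on the horizontal axis, for the 60 mitosis genes, 127 other mitosis genes, 33 DNA replication genes, all 13745 genes compared and the 7380 within the level range of the 60. The curve of the 60 genes rises steeply around its median of -0.47 and has almost ended at 0, where the curve of all genes stands at less than 50%.

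The promoters of these genes share letters that the choice of members did not use. Of the 60 genes, 50 matched by symbol a RefSeq promoter (build GRCh38.p14, 250 bases before to 50 bases after the annotated start); FOXM1, AURKA, BIRC5, BUB3, TTK, CENPH, CENPM, TPX2, RACGAP1 and UBE2C did not. The core letters of the CHR, TTTGAA or TTCGAA on either strand, occurred in 36 of the 50 promoters (72.0%). They occurred in 11.5% of the 9918 promoters of all genes compared that could be matched by symbol, and in 16.6% of all 27305 promoters in the table. The CCAAT box, on either strand, occurred in 37 of the 50 (74.0%), against 36.7% and 35.7%. Both occurred together in 28 promoters (56.0%), against 4.89% of the genes compared. E2F letters (TTGGCGC or TTCCCGC, either strand) occurred in 11 of the 50 (22.0%), against 14.8% of the genes compared, and TATAAA in 3 (6.0%), against 5.63%. The matched promoters of the 127 other mitosis genes lay between the 50 and all genes, with CHR letters in 38.0%, a CCAAT box in 51.9% and both in 23.1%, while E2F letters were more frequent there (35.2%) than in the 50. Of the promoters of 28 DNA replication genes, 1 held CHR letters (3.57%), 18 a CCAAT box (64.3%) and 21 E2F letters.

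The CHR letters also sat at a preferred place. Of 46 matches in the mitosis promoters, 35 (76.1%) began within 60 bases of the annotated start, against 28.5% of the 1270 matches in the promoters of all genes compared. Of 75 CCAAT matches, 56 began between 20 and 120 bases before the start. No share over all genes compared was computed for this place or for the arrangement described next. In 13 promoters a CHR match lay in the last 60 bases before the start with a CCAAT match upstream of it, both inside the 120 bases before the start. From these, the 4 with the most negative expression difference and the 2 with the highest are printed. All of them carry the arrangement because it was the rule by which they were picked. Each run is the 120 bases before the annotated start, 5′ to 3′ on the gene's own strand, with CHR and CCAAT letters in capitals (ATTGG and TTCAAA are the reverse complements). The choice was made after the values were seen.
CDCA8: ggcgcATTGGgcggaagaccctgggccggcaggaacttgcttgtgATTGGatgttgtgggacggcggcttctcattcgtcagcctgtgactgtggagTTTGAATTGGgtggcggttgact
KIF11: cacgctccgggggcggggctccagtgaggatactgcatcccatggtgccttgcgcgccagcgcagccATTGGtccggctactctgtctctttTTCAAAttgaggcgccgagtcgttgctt
PLK1: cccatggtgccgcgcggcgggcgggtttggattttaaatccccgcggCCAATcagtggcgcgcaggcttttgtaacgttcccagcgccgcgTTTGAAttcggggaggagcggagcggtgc
KIF4A: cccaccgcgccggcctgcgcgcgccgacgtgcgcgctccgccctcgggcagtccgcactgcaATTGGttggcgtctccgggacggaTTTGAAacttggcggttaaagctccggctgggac
ESPL1: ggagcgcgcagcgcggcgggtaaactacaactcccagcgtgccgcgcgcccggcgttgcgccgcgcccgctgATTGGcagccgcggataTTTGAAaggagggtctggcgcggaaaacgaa
KIF23: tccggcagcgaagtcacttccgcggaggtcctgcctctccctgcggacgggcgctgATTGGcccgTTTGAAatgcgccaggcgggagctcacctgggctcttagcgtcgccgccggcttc
In GRCh38.p14, all on the plus strand, these runs are CDCA8 chr1:37692396-37692515, KIF11 chr10:92593010-92593129, PLK1 chr16:23678769-23678888, KIF4A chrX:70289984-70290103, ESPL1 chr12:53268179-53268298 and KIF23 chr15:69414229-69414348. In CDCA8 the CHR shares its last base with the nearest CCAAT box, so the capitals run together. The CHR begins 24 bases after the start of the CCAAT box in KIF4A and 25 bases after it in KIF11, 44 bases after it in PLK1, 17 in ESPL1 and 9 in KIF23. In CDCA8 it begins 52 bases after the start of the nearest upstream CCAAT box. The expression differences of these genes were -0.81 (CDCA8), -0.71 (KIF11), -0.65 (PLK1), -0.61 (KIF4A), -0.11 (ESPL1) and -0.02 (KIF23).

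Among the 50 genes, the median difference lay between -0.50 and -0.37 for every combination of these letters. The 28 with both motifs had a median of -0.50 and the 8 with CHR alone -0.37. The 9 with CCAAT alone had a median of -0.47 and the 5 with neither (MYBL2, CDC25B, CDC25C, CENPE and KIF2C) -0.44. At least 1.5-fold lower were 7 of the 28, 1 of the 8, 3 of the 9 and 0 of the 5. Of all genes compared, 6.07% were. FOXM1, AURKA, BIRC5, TPX2 and RACGAP1, also past that threshold, had no matched promoter. A link between letters and differences was not tested. KIF20A, the gene with the most negative difference, held 2 CCAAT boxes and no CHR letters in this window, as did CCNB1. SPC25, the gene with the highest difference, held both motifs. A match is a description of letters and not a measured binding site.

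**Figure D3:**
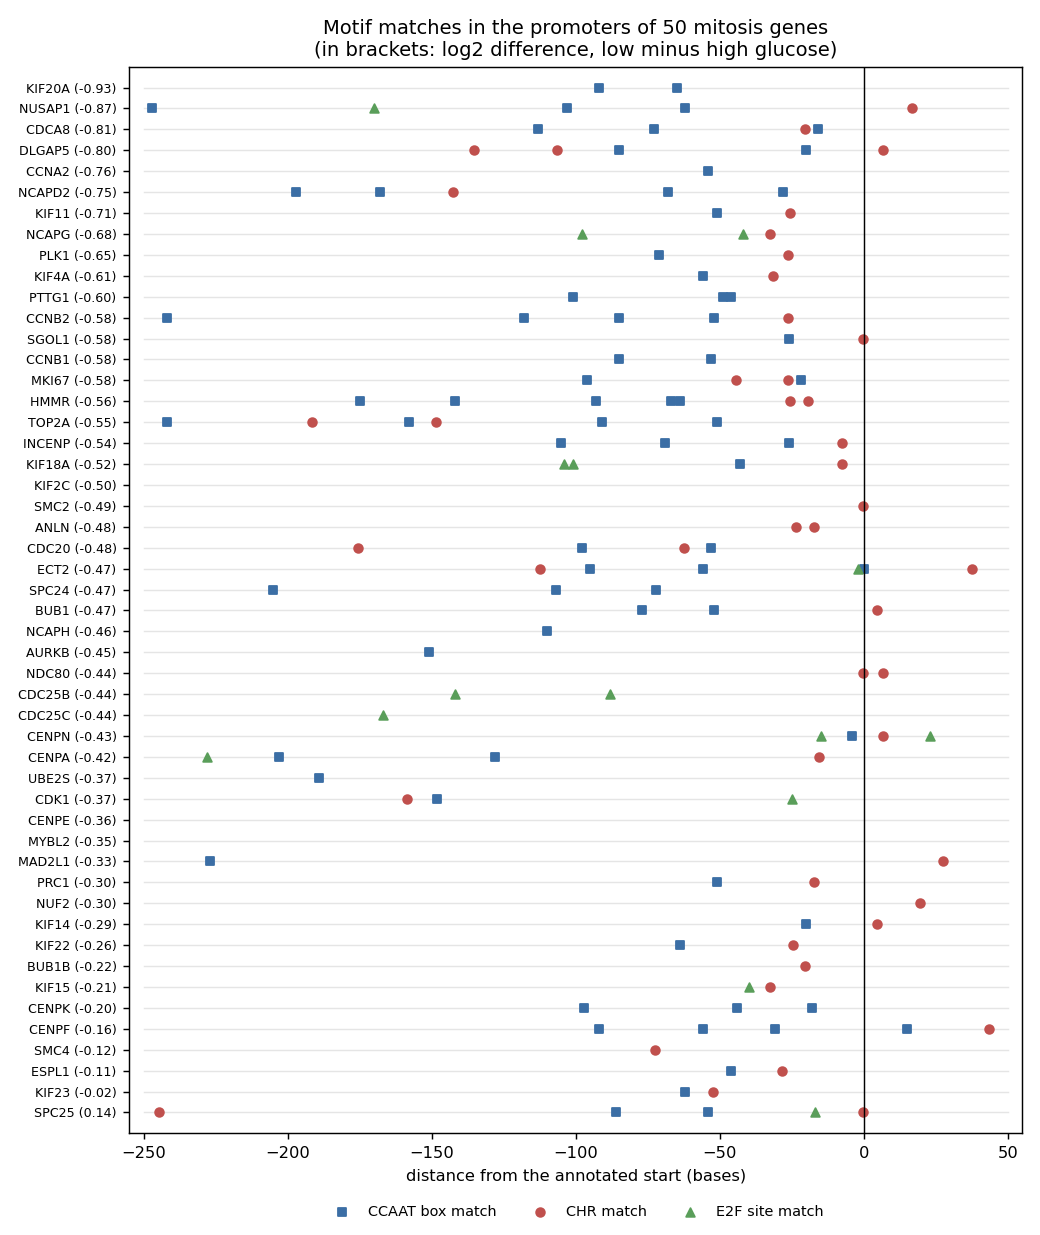
Centres of CHR (red circles), CCAAT box (blue squares) and E2F (green triangles) letter matches in the promoters of 50 mitosis genes, by distance in bases from the annotated start (vertical line), with genes ordered from the most negative expression difference (KIF20A, top) to the highest (SPC25, bottom). Red circles gather within 60 bases of the start (35 of 46 matches) at all heights of the plot.

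Proliferation markers and the transcription factors of the late cycle were all lower (median -0.57 over 4 genes). FOXM1, the forkhead factor that drives late cell cycle genes (chromosome 12, 2966847 to 2986321 in hg19, as for all gene intervals given here), had 125 TPM in high glucose and 75.2 TPM in low (difference -0.72). MYBL2, which encodes B-MYB, stood at 237 and 185 TPM (-0.35). The factor with the larger difference was thus FOXM1, and MYBL2 remained the most abundant of this group in both media. MKI67, which coats mitotic chromosomes and marks cycling cells, stood at 123 and 82.1 TPM (-0.58). TOP2A, the topoisomerase that untangles sister DNA, stood at 213 and 145 TPM (-0.55). These markers were lower by about the same amount as the typical member.

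The genes of the switch into mitosis were lower in all 7 cases (median -0.58). CDK1, the mitotic kinase itself, was the most abundant, at 192 TPM in high glucose and 148 TPM in low, and had the smallest difference of the group (-0.37). CCNA2, the cyclin of S and G2 phase (chromosome 4, 122737599 to 122745088), stood at 114 and 67.1 TPM (-0.76). The amount of CCNA2 mRNA per CDK1 mRNA was thereby 0.593 in high and 0.452 in low glucose. CCNB1, the main mitotic cyclin, stood at 192 and 128 TPM (-0.58). CCNB2, a second B-type cyclin, stood at 65.01 and 43.0 TPM (-0.58). The B-type cyclins kept their proportion, with 2.96 CCNB1 transcripts per CCNB2 transcript in high and 2.98 in low glucose. PLK1, the Polo kinase of mitotic entry, centrosomes and cytokinesis (chromosome 16, 23690201 to 23701688), stood at 127 and 80.9 TPM (-0.65). The phosphatase genes CDC25B and CDC25C, which activate CDK1, differed by -0.44 each, from 136 to 99.8 TPM and from 32.5 to 23.6 TPM.

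Aurora kinases and the chromosomal passenger complex had the most negative median of the 11 roles (-0.78 over 5 genes). Of these 5 genes, 3 were at least 1.5-fold lower, where 6.07% of all genes compared were. With the level-group medians subtracted the spindle assembly genes came first, at -0.63 against -0.61. The passenger complex joins Aurora B to INCENP, survivin and borealin and corrects faulty kinetochore attachments. BIRC5, which encodes survivin (chromosome 17, 76210277 to 76221716), had 69.2 TPM in high glucose and 36.8 TPM in low (-0.89). CDCA8, which encodes borealin (chromosome 1, 38158073 to 38175391), stood at 62.8 and 35.4 TPM (-0.81). AURKA, the Aurora kinase of centrosomes and spindle poles, stood at 177 and 103 TPM (-0.78). The enzymatic and scaffold parts of the complex differed less. AURKB stood at 214 and 156 TPM (-0.45), and INCENP, the scaffold, stood at 61.5 and 42.1 TPM (-0.54). AURKB made up 52.5% of the summed level of the 4 passenger genes in high glucose and 57.8% in low glucose, while BIRC5 went from 17.0% to 13.6% and CDCA8 from 15.4% to 13.1%.

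Spindle assembly genes had the next lowest median (-0.73 over 4 genes, 3 at least 1.5-fold lower, against 6.07% of all genes compared). TPX2, which activates Aurora A and starts microtubule growth around chromosomes, had 301 TPM in high glucose and 191 TPM in low (-0.66). NUSAP1, a microtubule bundler (chromosome 15), stood at 207 and 112 TPM (-0.87). DLGAP5 (HURP), which stabilises microtubules near chromosomes, stood at 57.5 and 32.7 TPM (-0.80). HMMR, a spindle pole protein and hyaluronan receptor, had the smallest difference of the 4, from 43.8 to 29.5 TPM (-0.56). The pair of roles around Aurora kinases and spindle assembly thus held 6 of the 16 genes past 1.5-fold among 9 members. Of all genes compared, 6.07% were past it, and the roles were put side by side after their values were seen. With the level-group medians subtracted TPX2 lay at -0.52, short of the threshold. AURKA, BIRC5, CDCA8, NUSAP1 and DLGAP5 stayed past it, as did 6.94% of all genes compared.

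Of the 11 roles, the checkpoint, NDC80 and centromere groups had the medians nearest to 0. Put together after their values were seen, their 16 genes had a median of -0.32 and none was at least 1.5-fold lower, a share near the 6.07% of all genes compared. In the checkpoint (median -0.33) the kinase genes BUB1 (92.0 and 66.3 TPM) and TTK (MPS1; 61.6 and 44.5 TPM) had the larger differences, -0.47 and -0.46. MAD2L1, the inhibitor that holds CDC20 in check and the most abundant of the 5, stood at 123 and 97.7 TPM (-0.33). BUB3, a platform protein of the checkpoint, stood at 121 and 111 TPM (-0.13), and BUB1B (BUBR1) at 61.1 and 52.5 TPM (-0.22). The number of BUB1 transcripts per BUB3 transcript was 0.758 in high and 0.597 in low glucose.

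The NDC80 complex, 4 subunits in equal number in the protein, is the kinetochore's grip on microtubules, and it held the only member above 0. SPC25 (chromosome 2, 169727401 to 169746944) had 71.1 TPM in high glucose and 78.2 TPM in low (0.14). Its direct partner SPC24 stood at 32.9 and 23.6 TPM (-0.47). There were 2.16 SPC25 transcripts per SPC24 transcript in high and 3.32 in low glucose. NDC80 itself stood at 89.8 and 65.7 TPM (-0.44) and NUF2 at 34.1 and 27.5 TPM (-0.30). SPC25 went from 31.2% to 40.1% of the summed level of the complex and NDC80 from 39.4% to 33.7%, so that the most abundant transcript of the complex was NDC80 in high and SPC25 in low glucose. The difference of SPC25 lay above 0 under every scaling tried, between 0.05 and 0.17. It was 0.24 with the level-group medians subtracted.

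Centromere proteins had the median nearest to 0 (-0.20 over 7 genes). CENPA, the histone H3 variant that marks the centromere, had 29.0 TPM in high glucose and 21.5 TPM in low (-0.42). CENPN, which reads the CENPA nucleosome, stood at 87.4 and 64.6 TPM (-0.43), the largest difference of the 7. The motor gene CENPE stood at 30.5 and 23.5 TPM (-0.36). CENPH, CENPK and CENPM, parts of the constitutive inner kinetochore like CENPN, were nearer to level. CENPH stood at 35.3 and 35.0 TPM (-0.01), CENPM at 52.4 and 49.3 TPM (-0.08) and CENPK at 62.5 and 54.5 TPM (-0.20). CENPF, a large protein of the outer kinetochore and nuclear matrix, stood at 73.3 and 65.4 TPM (-0.16). The direction for CENPH was not fixed: it was 0.014 when the 50 most abundant genes were left out of the total.

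Kinesins, the motors that slide and dismantle spindle microtubules, ran from the lowest value of the 60 to almost 0 (median -0.50 over 9 genes). KIF20A (MKLP2), which moves the passenger complex to the midzone (chromosome 5, 137514417 to 137523404), had 71.9 TPM in high glucose and 37.2 TPM in low. Its difference of -0.93 was the most negative of the 60. KIF11 (Eg5), which pushes the spindle poles apart (chromosome 10, 94352825 to 94415152), stood at 42.1 and 25.3 TPM (-0.71). KIF4A, a chromosome-bound motor of the midzone, stood at 41.5 and 26.7 TPM (-0.61). At the other end KIF23 (MKLP1; chromosome 15, 69706585 to 69740766), the motor of the centralspindlin complex, was near level at 75.4 and 74.3 TPM (-0.02). It was 0.0081 when the 50 most abundant genes were left out of the total and 0.084 with the level-group medians subtracted. KIF22, a chromosome arm motor and the most abundant kinesin of the list, stood at 114 and 95.2 TPM (-0.26). The remaining 4 kinesins, KIF2C, KIF14, KIF15 and KIF18A, lay between -0.52 and -0.21. The near-identical retrogene copy KIF4B stood at 0.02 TPM in both media.

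Cytokinesis genes (median -0.47 over 4) had an uneven pair in centralspindlin, a complex of KIF23 and RACGAP1. RACGAP1, its GTPase-activating subunit, had 74.6 TPM in high glucose and 47.3 TPM in low (-0.65). There were 1.01 KIF23 transcripts per RACGAP1 transcript in high and 1.57 in low glucose. ECT2, the exchange factor that centralspindlin recruits to activate RhoA, stood at 96.9 and 69.8 TPM (-0.47), and ANLN (anillin), which scaffolds the contractile ring, at 85.0 and 60.6 TPM (-0.48). PRC1, the bundler of midzone microtubules, was the most abundant of the 4 and had the smallest difference, from 143 to 116 TPM (-0.30).

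The machinery of mitotic exit held the most abundant members. UBE2S, which extends ubiquitin chains on APC/C targets, had 499 TPM in high glucose and 385 TPM in low (-0.37). UBE2C, which starts those chains, stood at 453 and 311 TPM (-0.54). There were 0.906 UBE2C transcripts per UBE2S transcript in high and 0.809 in low glucose. CDC20, the APC/C activator that the checkpoint restrains, stood at 211 and 151 TPM (-0.48). PTTG1, which encodes securin (chromosome 5), stood at 348 and 228 TPM (-0.60), while ESPL1, which encodes the separase that securin inhibits, stood at 28.8 and 26.6 TPM (-0.11). The inhibitor's transcript thus outnumbered that of its protease by 12.1 to 1 in high and by 8.58 to 1 in low glucose. SGOL1 (shugoshin), which protects centromeric cohesin, stood at 35.6 and 23.4 TPM (-0.58). The PTTG1 relatives PTTG2 and PTTG3P were listed at 0 in both media.

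Condensin I, a ring of SMC2 and SMC4 closed by 3 further subunits, was lower in all 5 genes but not in proportion. NCAPD2 had 134 TPM in high glucose and 79.8 TPM in low (-0.75), and NCAPG at 137 and 85.1 TPM (-0.68). Both encode HEAT repeat subunits that occur in condensin I only. SMC4, a ring subunit shared with condensin II, stood at 148 and 136 TPM (-0.12), a difference that was 0.041 with the level-group medians subtracted. Its share of the summed level of the complex went from 29.9% to 38.3%, while NCAPD2 went from 27.1% to 22.5% and NCAPG from 27.6% to 23.9%. SMC2, the other shared ring subunit, stood at 47.4 and 33.5 TPM (-0.49), and NCAPH, the bridging subunit and least abundant of the 5, at 29.1 and 20.97 TPM (-0.46). The subunits that belong to condensin II alone, NCAPD3, NCAPG2 and NCAPH2, lay at -0.33, -0.22 and -0.05 (0.075 for NCAPH2 with the level-group medians subtracted).

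**Figure D4:**
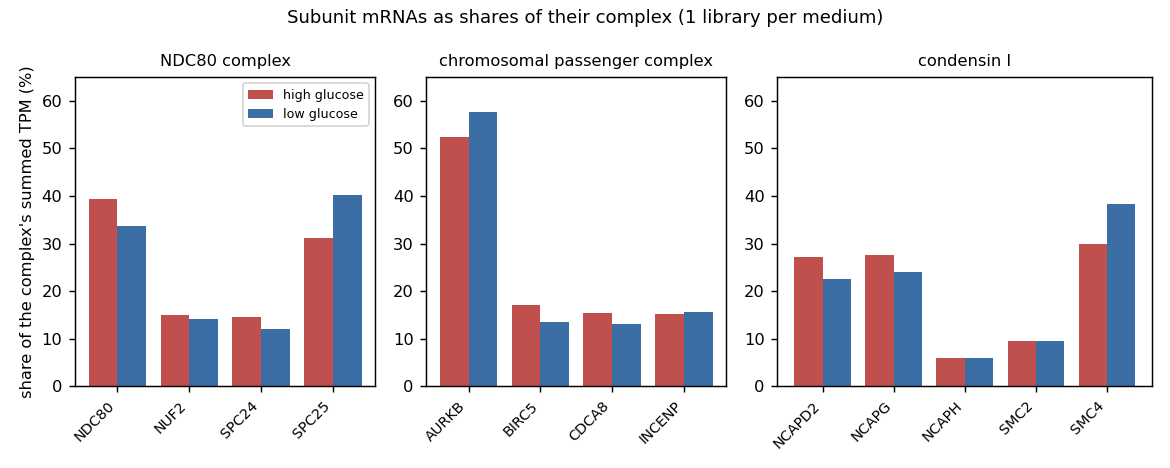
Bars show the TPM of each subunit as a percentage of the summed TPM of its complex in the high (red) and low glucose (blue) library, 1 library each, for the NDC80 complex, the chromosomal passenger complex and condensin I. The shares of SPC25 (31.2% to 40.1%), AURKB (52.5% to 57.8%) and SMC4 (29.9% to 38.3%) were larger in low glucose, and those of NDC80, BIRC5 and NCAPD2 smaller.

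The threshold of 1.5-fold has no special place among these values. The members just past it were RACGAP1 (-0.65), KIF4A (-0.61) and PTTG1 (-0.60). The next ones short of it were CCNB2, SGOL1, CCNB1 and MKI67, all at -0.58. On the ratio of TPM without the added 1, CCNB2 (0.662), SGOL1 (0.658), CCNB1 (0.666) and MKI67 (0.666) would be past it. The 16 genes past it were KIF20A, BIRC5, NUSAP1, CDCA8, DLGAP5, AURKA, CCNA2, NCAPD2, FOXM1, KIF11, NCAPG, TPX2, PLK1, RACGAP1, KIF4A and PTTG1. With median-of-ratios scaling 25 genes passed, and with a trimmed mean of differences 26; 8.91% and 8.98% of all genes did so under these scalings. Of the 60 genes, 13 overlap the interval of another entry above 0 TPM, among them KIF20A (with CDC23), CCNA2 (with EXOSC9), CENPN (with CMC2) and FOXM1 (with RHNO1). Whether reads were counted by strand is not known here, so their values are less certain. Without these 13, 46 of 47 lay below 0, 11 were 1.5-fold lower and the median was -0.47.

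Other mitosis genes, from 7 lists of 127 genes outside the 60, were lower less uniformly. Of these, 94 lay below 0 (74.0%) and 33 above, with a median of -0.24. Below 0 were 45.3% of all genes compared and 53.0% of those in the level range of the 60. Only 1 was at least 2-fold lower and none 2-fold higher, where 1.10% and 3.65% of all genes compared were, so the count past 2-fold is near the background. At 1.5-fold 20 were lower (15.7%) and 2 higher, against 6.07% and 13.0% of all genes. In the control of mitotic entry (14 genes, 12 below 0, median -0.34), an activator and an inhibitor of CDK1 lay on opposite sides. CDC25A, the phosphatase that activates CDK2 and CDK1, had 48.6 TPM in high glucose and 18.4 TPM in low (-1.35). WEE1, the kinase that opposes it by phosphorylating CDK1, stood at 53.2 and 83.1 TPM (0.63), and at 0.55 and 0.54 with median-of-ratios and trimmed mean scaling. There were 0.912 CDC25A transcripts per WEE1 transcript in high and 0.222 in low glucose. Other genes of this kind differed less. PKMYT1, another kinase gene of this list, named after its values were seen, stood at 32.9 and 34.4 TPM (0.06). CDC25B and CDC25C, among the 60, differed by -0.44 each. PBK, a mitotic kinase, stood at 86.0 and 56.5 TPM (-0.60), and CKS1B, a small CDK-binding protein and the most abundant of this list, at 401 and 380 TPM (-0.08, or 0.062 with the level-group medians subtracted).

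Among 31 other kinetochore genes, 20 lay below 0 and 7 were at least 1.5-fold lower (median -0.31). SKA3 and SKA2, which help NDC80 hold on to shortening microtubules, stood at 37.2 and 20.4 TPM (-0.84) and at 79.8 and 45.5 TPM (-0.80). The third SKA subunit, SKA1, lay on the other side of 0, at 63.1 and 85.6 TPM (0.43); it was named after its values were seen. STRA13 (CENPX, a histone fold protein) stood at 72.4 and 41.9 TPM (-0.78), and ZWINT, the most abundant of the list, at 159 and 115 TPM (-0.46). MIS12, which links the inner and the outer kinetochore, was the only one of the 31 at least 1.5-fold higher, at 23.2 and 37.1 TPM (0.66), and was also named after its values were seen.

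Other spindle and centrosome genes (35, median -0.21) had 23 below 0 (65.7%, against 45.3% of all genes compared) and 5 at least 1.5-fold lower (14.3%, against 6.07%). They included SPAG5 (astrin; 200 and 121 TPM, -0.72), CKAP2 (69.2 and 42.4 TPM, -0.70), FAM83D (110 and 68.1 TPM, -0.69) and TACC3 (232 and 145 TPM, -0.67), all of them spindle proteins. The 16 APC/C subunits and regulators had a median of -0.15 with 13 below 0. The small subunit CDC26 stood at 63.9 and 33.9 TPM (-0.90) and the APC/C inhibitor FBXO5 (EMI1) at 65.9 and 40.3 TPM (-0.70), while the catalytic ANAPC11 stood at 123 and 116 TPM (-0.09, or 0.036 with the level-group medians subtracted). Cohesin and its regulators (14 genes, 12 below 0, median -0.21) included ESCO2, the S phase acetyltransferase of cohesin (35.1 and 19.97 TPM, -0.78), SGOL2 (30.3 and 19.7 TPM, -0.60) and the most abundant member RAD21, the subunit that separase cuts (188 and 131 TPM, -0.51).

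The factors that control transcription of mitotic genes had a median of -0.13 over 14 genes, with 11 below 0 (78.6%, against 45.3% of all genes compared). At least 1.5-fold lower was 1 gene (7.14%, near the 6.07% of all genes compared). That gene, TFDP1, the partner of E2F factors, had 88.3 TPM in high glucose and 49.97 TPM in low (-0.81). The MuvB subunits LIN9, LIN37, LIN52, LIN54 and RBBP4, named after their values were seen, lay between -0.39 (RBBP4) and 0.40 (LIN54). The NF-Y subunits NFYA, NFYB and NFYC, also named after their values were seen, lay at -0.08, -0.0045 and -0.38.

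**Figure D5:**
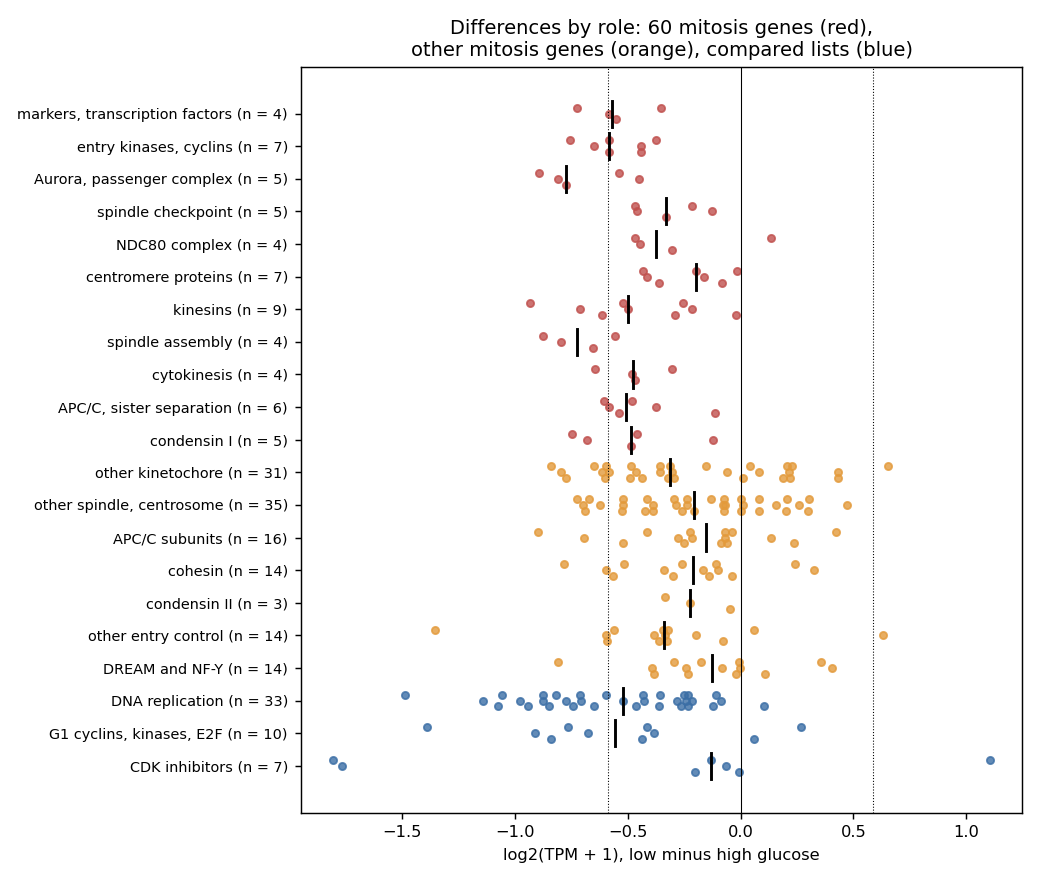
Each point is the log2(TPM + 1) difference, low minus high glucose, of 1 gene, for the 11 roles of the 60 mitosis genes (red), 7 lists of other mitosis genes (orange) and 3 compared lists (blue); black bars are medians and dotted lines mark 1.5-fold. The red medians run from -0.78 (Aurora and passenger complex) to -0.20 (centromere proteins).

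The genes of DNA replication, which are transcribed earlier in the cycle, differed in the same direction and reached further. Of 33 replication genes, 32 lay below 0, 16 were past 1.5-fold lower and 4 past 2-fold lower, against 45.3%, 6.07% and 1.10% of all genes compared. The median was -0.52 and the ratio of summed TPM 0.600, against 0.715 for mitosis. The sliding clamp gene PCNA had the most negative difference, -1.49, the flap endonuclease gene FEN1 at -1.14 and the helicase gene MCM6 at -1.07. G1 cyclins, their kinases and E2F genes had a median of -0.56 over 10 genes, with CCND1 (cyclin D1) at 241 TPM in high glucose and 91.3 TPM in low (-1.39). E2F2 (-0.91) and CCND3 (-0.84) came next. Of 7 CDK inhibitors, 6 lay below 0, with a median of -0.13. CDKN1C (-1.80) and CDKN2C (-1.76) were lower, CDKN2B (1.10) was higher, and the rest lay between -0.20 and -0.01. The difference between the lists was not tested, since each medium has a single library.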

How the data were processed

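RNA-seq of Huh7 cells in high and low glucose, 1 library per medium, was deposited by the authors as TPM per gene, per the file headers. The submitters' processing notes name cutadapt, RSEM 1.2.21 and hg19; aligner, annotation and strand setting: not given in the sources used here. Read depth is unknown from TPM, so no counting interval is given.

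The mitosis genes, all lists and the threshold of 1.5-fold were chosen with earlier results of these data known. Genes with a mean of at least 1 TPM (13745) were compared by log2(TPM + 1), low minus high glucose, with thresholds of 2-fold and 1.5-fold and no test. In each role the genes with the lowest and the highest difference and the most abundant one were named, with all members past 1.5-fold or above 0; of other lists, up to 3 past 1.5-fold, and the most abundant gene of the other mitosis lists. Simulated data were used to check the calls at 2-fold and the recovery of a scaling factor. The counts at 1.5-fold and below 0 were not checked in this way. The noise in the simulation was preset and not taken from these libraries. Promoters came from RefSeq (GRCh38.p14), used for letters only. Python 3.11.15, pandas 2.3.3 and matplotlib 3.10.9 were used. Alternatives covered scaling, pseudocount, filter, threshold, level groups, promoter window and overlapping entries.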

Additional observations from a re-analysis of the deposited data

How the results depend on the processing

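No paired analysis was possible because each medium has 1 library, and no replicate could be left out. The median of the 60 genes lay between -0.56 and -0.41 under all alternatives, their summed ratio between 0.670 and 0.729, and 57 to 59 of them lay below 0 (46 of 47 without overlapping entries). Median-of-ratios scaling and a trimmed mean of differences raised the count at least 1.5-fold lower from 16 to 25 and 26 and put 1 gene, KIF20A, past 2-fold. The count was 12 with the median of each level group subtracted, where 6.94% of all genes compared were 1.5-fold lower. It was 15 with pseudocount 5 (3.82% of all genes) or the total without the 50 most abundant genes (5.34%). With pseudocount 0.1 the count was 20 (7.41%) and with upper-quartile scaling 22 (7.40%). A threshold of -0.32 on the log2 scale gave 45. Of all genes compared, 16.5% lay at or below -0.35 and 19.7% at or below -0.3. KIF23 was 0.0081 and CENPH 0.014 with the total taken without the 50 most abundant genes. With the median of each level group subtracted, KIF23 was 0.084, SMC4 0.041, ANAPC11 0.036, NCAPH2 0.075 and CKS1B 0.062. The median of the G1 list was -0.44 with no filter and -0.43 at a mean of at least 10 TPM, since these filters add or drop genes. Scalings moved the median of all genes to between -0.03 and 0.08. Of 420 values of the 60 genes under alternatives, 379 kept their direction and side of 1.5-fold. CHR letters occurred in 26 promoters in the 250 bases before the start and in 33 between 100 before and 50 after. Alternatives on overlapping entries and on the level range were chosen after the data were seen. Read depth is unknown, so the counting error of single genes could not be given.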

Other observations

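Outside the 60 genes, promoters with both CHR and CCAAT letters belonged to 458 of the genes compared. Their median difference was -0.03, 53.7% lay below 0 and 9.61% were at least 1.5-fold lower. Genes with CHR letters alone (647) had a median of 0.03 with 7.11% at least 1.5-fold lower, and those with CCAAT alone (3141) a median of 0.01 with 6.46%. Genes with neither (5623) had a median of 0.05 with 5.25%. Among the other mitosis genes, the 25 with both motifs had 22 below 0 and a median of -0.35. The 36 with neither had 23 below 0 and a median of -0.22. The 16 with CHR alone had 11 below 0 and a median of -0.14. The 31 with CCAAT alone had 25 below 0 and a median of -0.23. At least 1.5-fold lower were 3 of the 25, 6 of the 36, 2 of the 16 and 4 of the 31. That share was thus highest among the genes with neither motif.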
